A study of Mus musculus with 9 samples.

Results

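Null cochlear ducts were compared with heterozygote cochlear ducts to ask what changed in the RNA of the duct when the second Prdm16 allele was lost. The comparison used 6 of the 9 libraries of the study, 3 labelled Prdm16-null and 3 labelled Prdm16-het, and the other 3, labelled wild type (WT), are given beside them for reference. Each library was made from the microdissected cochlear ducts of both inner ears of 1 mouse embryo at E14.5, and the 3 embryos of a genotype were littermates. The Prdm16 cGT allele is a gene trap that all cells of the embryo carry, so the null ducts (Prdm16 cGT/cGT) lacked an intact copy in the epithelium, the mesenchyme and elsewhere alike, and the heterozygote ducts (Prdm16 cGT/+) kept a WT copy. Every gene was a member of the comparison: the deposited tables held raw read counts for 54232 genes, and 17067 of these passed the filter on low counts and were tested.

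PRDM16 is a zinc finger protein with a PR domain that acts in the nucleus as a transcriptional regulator, and it is best known for its part in the choice of brown fat fate and in neural and haematopoietic stem cells. In the floor of the embryonic cochlear duct, the prosensory domain, which gives rise to the organ of Corti, lies between the Kölliker's organ (KO) on the neural side and the outer sulcus on the abneural side, and a thin non-sensory roof closes the duct. The KO is a tall transient epithelium that secretes much of the tectorial membrane, the extracellular sheet that overlies the hair cells, and PRDM16 marks its nuclei.

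Total counts ranged from 24767705 to 27696846 in the heterozygote libraries and from 24095322 to 30819118 in the null libraries. Values are given below as CPM, read counts relative to the TMM-scaled size of each library (scaled over all 9 libraries), and a count of 3, taken as the floor, was worth 0.0973 to 0.125 CPM, which covers counting error only. A gene was called when its Benjamini-Hochberg adjusted p-value from edgeR's quasi-likelihood test was under 0.05 and its absolute log2 fold change over 0.5. For 3 embryos against 3 the smallest two-sided p of an exact permutation test is 0.1, and the p-values given are those of models fitted across all genes. The tissue markers fitted the label: all 14 markers of cochlear epithelium were detected, and their summed level lay between 15850 and 20765 CPM in the 6 libraries.

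Null library 3 stood apart from the other 5. On the first principal component of the 500 most variable genes, which held 58.4% of their variance, it lay at 51.2 while the others lay between -16.3 and -2.51. The summed level of 14 cartilage markers was 3295 CPM in null library 3 and 1374 to 1914 CPM in the others, that of 15 endothelial markers 109.9 CPM against 14.8 to 18.2 CPM, that of 14 immune markers 23.1 CPM against 6 to 11 CPM, and that of 130 periotic mesenchyme genes 17576 CPM against 11687 to 13453 CPM. Acan, the large cartilage proteoglycan, was at 502 CPM in this library and at 1.1303 to 7.03 CPM in the other 5. The embryos were also of both sexes by their Y-linked and Xist reads, male in heterozygote 1 and null 1 and 2, and female in heterozygote 2 and 3 and null 3. The part of these differences in single results was not tested beyond the fits without null library 3 and with sex as a covariate.

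**Figure D1:**
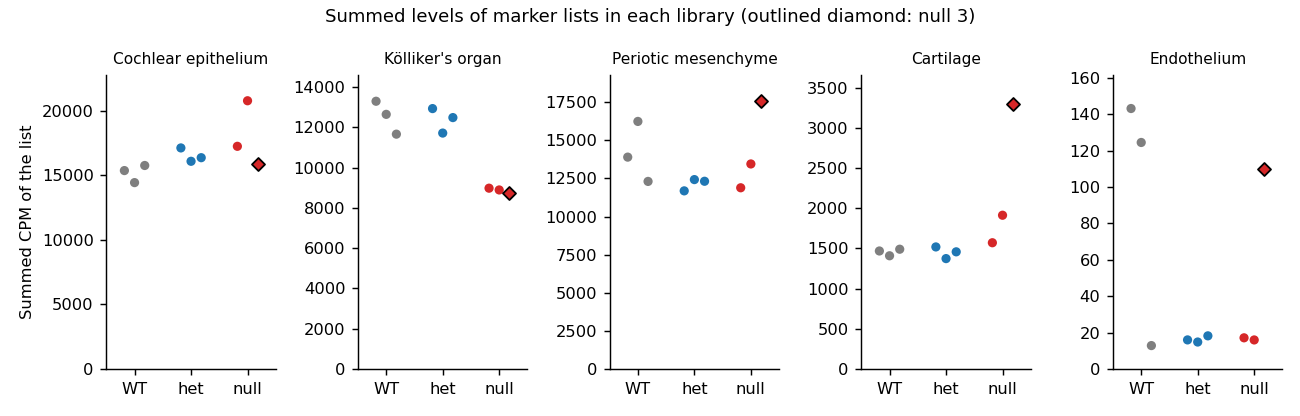
Summed CPM (vertical axis) of 5 gene lists in each library by genotype (WT, het and null, 3 libraries each; the outlined diamond is null library 3). Cartilage, endothelial and mesenchyme sums were highest among the 6 het and null libraries in null library 3, while the KO sum was lower in all 3 null libraries (8737 to 8976 CPM) than in the 3 het libraries (11713 to 12929 CPM).

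Prdm16 (ENSMUSG00000039410), the targeted gene, lies on the minus strand of chromosome 4 from 154316125 to 154636873 in mm10. Its level was 151, 123 and 141 CPM in heterozygote libraries 1, 2 and 3 and 23.7, 19.1 and 27.4 CPM in null libraries 1, 2 and 3, against 225, 197 and 184 CPM in WT. Every library sat where its label placed it, and no 2 genotypes overlapped. The heterozygote mean was 138 ± 14.5 CPM (SD, n = 3), and null ducts held 16.9% of it (log2 fold change -2.57, SE 0.148, edgeR adjusted p = 7.44e-04). The call held in each of the 6 fits that left out 1 library, with log2 fold changes from -2.70 to -2.43. Reads were counted over the whole gene, so that exons on either side of the trap could not be told apart.

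The calls near Prdm16 lay at its own locus. Of 116 genes tested within 5 Mb of Prdm16 on chromosome 4, 3 were lower in null ducts and 0 higher. Over all genes 0.322% were lower and 0.293% higher. The median log2 fold change in this window was -0.00. The 3 were Prdm16 itself and a pair of transcribed units that adjoin it. B230104I21Rik lies within the Prdm16 gene on the opposite strand and was at 1.25, 0.793 and 0.439 CPM in heterozygote and 0, 0.0323 and 0.0419 CPM in null libraries, all null values being under the floor (edgeR adjusted p = 0.0431). It lies outside the rule for named genes and was chosen after its values were seen. Gm13111, an antisense RNA, begins 702 bases beyond its start. Gm13111 was at 48.2, 43.7 and 45.6 CPM in heterozygote and at 33.7, 27.6 and 28.9 CPM in null libraries (log2 fold change -0.61, SE 0.102, edgeR adjusted p = 0.0481), and the call was kept in 1 of the 6 fits that left out a library. Whether the reads were counted by strand is not given in the sources used here. How reads were shared between Prdm16 and B230104I21Rik within it was not tested.

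Over all genes, 50 were higher in null than in heterozygote ducts (0.293% of those tested) and 55 were lower (0.322%), 105 in all (0.615%). The median log2 fold change over all tested genes was 0.01. The called genes had median log2 fold changes of 1.19 among the higher and -1.13 among the lower, 31 in each direction lay beyond an absolute log2 fold change of 1, and 48 of the higher and 47 of the lower were protein coding. The 3 null and 3 heterozygote values did not overlap for any of the 105. These genes were picked by a test on the same libraries, so their separation is no further evidence. The share of all tested genes without overlap was not counted. For a single gene such a separation has an exact two-sided p of 0.1, and it is given below as description only. At an unadjusted p under 0.05, 1048 genes were higher (6.14%) and 896 lower (5.25%). DESeq2 called 195 genes higher (1.14%) and 165 lower (0.967%), and these included 48 of the 50 and 53 of the 55. The counts given below for gene lists stand beside these shares over all genes.

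**Figure D2:**
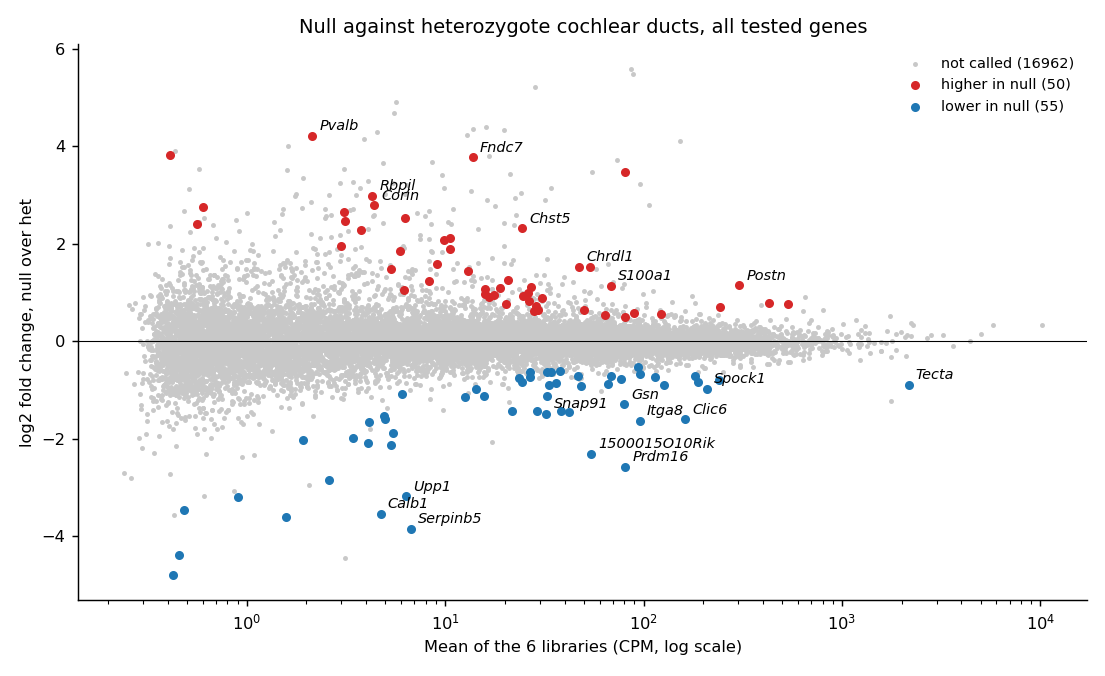
Log2 fold change of null against het ducts (vertical axis) against mean CPM (horizontal axis, log scale) for the 17067 genes tested, with the 50 genes called higher in red, the 55 called lower in blue and the other genes in grey. Calls were spread over the whole range of levels, and Prdm16 was at -2.57.

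The number of calls rested on single libraries, the heterozygote ones above all. Without heterozygote 1, 5 genes were called higher and 7 lower. Without heterozygote 2 the numbers were 12 and 21, and without heterozygote 3 they were 8 and 6. Without null library 3, which stood apart, 81 genes were higher (0.459%) and 101 lower (0.573%), and these included 49 of the 50 and 52 of the 55. Without null 1 they were 36 and 43 and without null 2 they were 51 and 43. Only 11 genes were called in each of these 6 fits, which were Fndc7, Rbpjl, Corin, Chst5 and Chrdl1 among the higher and Prdm16, Calb1, 1500015O10Rik, Clic6, Snap91 and Pla2r1 among the lower.

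Among the 11, Fndc7, a fibronectin type III domain gene, rose most. It was at 2.33, 1.62 and 1.65 CPM in heterozygote libraries 1, 2 and 3 and at 29.1, 23.5 and 24.4 CPM in the null libraries. All null values were far above all heterozygote values, and the log2 fold change was 3.78 (SE 0.190, edgeR adjusted p = 4.81e-04). Rbpjl, a relative of the Notch effector RBPJ that binds the same DNA but not the Notch receptor, was at 1.12, 0.721 and 1.02 CPM in heterozygotes and 6.11, 7.91 and 8.84 CPM in null ducts. The lowest null value was thus several times the highest heterozygote value (log2 fold change 2.99, SE 0.258, edgeR adjusted p = 0.00356). Rbpjl overlaps Matn4, on the opposite strand, by 2020 bases, and Matn4 was also higher.

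Corin, a membrane-bound serine protease that processes the precursor of atrial natriuretic peptide, was at 1.25, 1.082 and 0.987 CPM in heterozygote and 7.47, 7.59 and 7.92 CPM in null libraries. The null values were close to one another and all above the heterozygotes (log2 fold change 2.79, SE 0.197, edgeR adjusted p = 0.00146). Chst5, a sulfotransferase acting on N-acetylglucosamine, was at 8.80, 9.52 and 6.03 CPM in heterozygote and 42.0, 34.7 and 45.5 CPM in null libraries (log2 fold change 2.33, SE 0.190, edgeR adjusted p = 0.00296). Its WT values of 4.45, 6.12 and 8.55 CPM overlapped those of the heterozygotes. Chrdl1, which encodes a secreted antagonist of BMP ligands, was at 22.4, 22.9 and 27.1 CPM in heterozygote and 67.9, 67.9 and 74.6 CPM in null libraries, with all null values above all others (log2 fold change 1.54, SE 0.102, edgeR adjusted p = 0.00117).

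**Figure D3:**
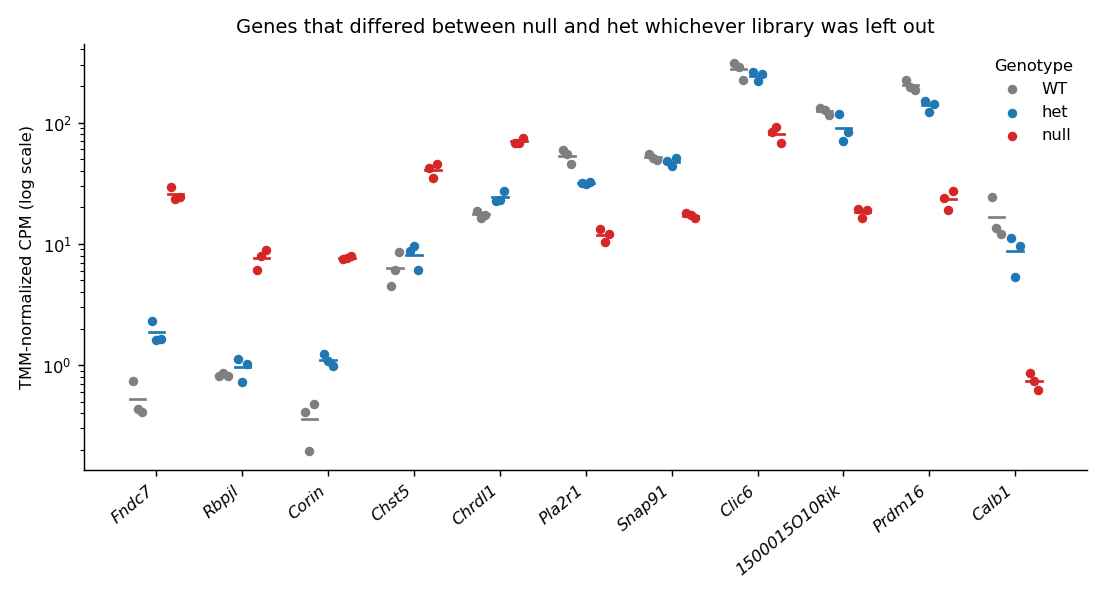
CPM (vertical axis, log scale) in each WT, het and null library for the 11 genes that were called in every fit leaving out 1 library, with a bar at the genotype mean of 3 libraries. In each panel the 3 null points lie apart from the 3 het points, as for Fndc7 at 23.5 to 29.1 CPM in null and 1.62 to 2.33 CPM in het libraries.

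Of the 6 that fell, Calb1, which encodes the calcium buffer calbindin-D28k, fell most. It was at 11.1, 5.34 and 9.66 CPM in heterozygote and 0.867, 0.743 and 0.629 CPM in null libraries, so that the null ducts held 8.57% of the heterozygote mean (log2 fold change -3.54, SE 0.326, edgeR adjusted p = 0.00508). Its heterozygote values were widely spread, whereas its null values were close together. 1500015O10Rik, which encodes the secreted peptide precursor augurin, was at 117, 70.4 and 83.1 CPM in heterozygote and 19.5, 16.4 and 19 CPM in null libraries (log2 fold change -2.30, SE 0.186, edgeR adjusted p = 0.00296). Clic6, of the chloride intracellular channel family, was at 260, 218 and 250 CPM against 83.5, 91.3 and 67.5 CPM in null ducts (log2 fold change -1.59, SE 0.122, edgeR adjusted p = 0.00243). Both were well separated between the genotypes.

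Snap91, whose product AP180 assembles clathrin coats, was at 48.3, 43.9 and 50.9 CPM in heterozygote and 18, 17.1 and 16.2 CPM in null libraries (log2 fold change -1.48, SE 0.0987, edgeR adjusted p = 0.00117). Pla2r1, the M-type phospholipase A2 receptor, was at 31.7, 31.3 and 32.4 CPM in heterozygote and 13.3, 10.4 and 12.1 CPM in null libraries (log2 fold change -1.42, SE 0.122, edgeR adjusted p = 0.00356). Pla2r1 is named here after its values were seen, because it was called in every fit. The replicates of each genotype were tight for both genes, and no null value came near a heterozygote value.

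Promoters were at hand for 6 of these 11 genes, and those of 4, a pair that rose and a pair that fell, are shown as examples of each direction among the genes called in every fit that left out a library. Clic6, 1500015O10Rik, Calb1, Chrdl1 and Fndc7 are named only. Each is the 300 bases from 250 before to 50 after the RefSeq start on GRCm38.p6 (the mm10 assembly), written 5′ to 3′ on the strand of the gene. Corin is at chr5:72504491-72504790 on the minus strand, Rbpjl at chr2:164402944-164403243 on the plus strand, Snap91 at chr9:86880659-86880958 and Pla2r1 at chr2:60553259-60553558 on the minus strand. Capitals mark AGATAA, a core of the DNA bound by the first group of zinc fingers of the related MECOM protein.
Corin: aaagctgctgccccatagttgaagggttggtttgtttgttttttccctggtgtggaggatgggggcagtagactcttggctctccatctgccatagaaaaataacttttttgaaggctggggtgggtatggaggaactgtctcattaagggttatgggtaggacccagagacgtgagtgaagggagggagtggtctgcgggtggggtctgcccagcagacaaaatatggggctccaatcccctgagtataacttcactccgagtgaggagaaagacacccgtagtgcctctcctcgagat
Rbpjl: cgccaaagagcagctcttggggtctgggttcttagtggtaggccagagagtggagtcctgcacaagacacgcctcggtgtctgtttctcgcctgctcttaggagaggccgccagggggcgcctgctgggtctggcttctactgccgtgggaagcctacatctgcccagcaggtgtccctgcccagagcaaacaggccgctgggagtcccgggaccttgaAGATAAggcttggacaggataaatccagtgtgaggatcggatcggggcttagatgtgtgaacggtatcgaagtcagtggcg
Snap91: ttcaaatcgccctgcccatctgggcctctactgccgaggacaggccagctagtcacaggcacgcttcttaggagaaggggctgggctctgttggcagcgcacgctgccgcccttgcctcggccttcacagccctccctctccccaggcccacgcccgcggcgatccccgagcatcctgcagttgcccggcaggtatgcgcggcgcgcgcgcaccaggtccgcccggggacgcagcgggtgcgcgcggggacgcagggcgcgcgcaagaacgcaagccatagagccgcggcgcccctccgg
Pla2r1: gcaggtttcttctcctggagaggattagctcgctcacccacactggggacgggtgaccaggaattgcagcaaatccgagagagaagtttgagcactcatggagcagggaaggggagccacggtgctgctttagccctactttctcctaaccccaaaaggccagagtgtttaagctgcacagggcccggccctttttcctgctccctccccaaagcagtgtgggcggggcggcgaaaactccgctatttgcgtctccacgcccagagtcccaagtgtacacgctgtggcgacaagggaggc
AGATAA was searched on both strands, as was GATGAG, a core bound by the other zinc fingers of MECOM, and also the TATA box with the letters TATAAA. The only match in these 4 windows was the AGATAA in Rbpjl. The GC content was 51.7% for Corin, 59.7% for Rbpjl, 72.0% for Snap91 and 58.7% for Pla2r1, against a median of 52.7% over all promoters. Promoters were at hand for 37 of the 50 genes called higher and 38 of the 55 called lower. AGATAA was in 11.1% of the 54 promoters of the higher genes, 10.5% of the 57 promoters of the lower genes and 11.2% of all 32851 promoters. GATGAG was in 13%, 7.02% and 12%, and TATAAA in 11.1%, 5.26% and 13.6%. A match is a run of letters and not a site shown to be bound, and its absence says only that the letters are not in the window.

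Several genes of the KO were lower in null ducts. The study's single-cell clusters of WT ducts gave 48 KO genes, of which 47 were tested here, and 10 of these were called lower by edgeR and 0 higher, against 0.322% of all genes called lower. DESeq2 called 13 lower and 0 higher. At an unadjusted p under 0.05, 29 were lower and 0 higher, and 46 of the 47 had a negative log2 fold change, with a median of -0.39 against 0.01 over all tested genes. In bulk tissue, fewer KO cells and less RNA of these genes per cell cannot be told apart. The summed level of the list was 12929, 11713 and 12482 CPM in heterozygote libraries and 8976, 8888 and 8737 CPM in null libraries, and the genotypes did not overlap. The number called lower was 12 without null library 3 and 7 without heterozygote 2, and it was 4 without heterozygote 1 and 4 without heterozygote 3. The median was between -0.41 and -0.36 in all 6 of these fits.

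The 10 KO genes called lower were Prdm16, 1500015O10Rik, Clic6, Snap91, Efhd1, Spock1, Tecta, Rgcc, Cdh4 and Chst15. Tecta, which encodes the tectorial membrane protein alpha-tectorin, was by far the most abundant, at 3139, 2499 and 2786 CPM in heterozygote and 1642, 1532 and 1393 CPM in null libraries. The lowest heterozygote value was above the highest null value, and the log2 fold change was -0.88 (SE 0.124, edgeR adjusted p = 0.0265). Efhd1, an EF-hand calcium-binding protein of mitochondria, was at 68.8, 51.8 and 65.1 CPM in heterozygote and 21.6, 26 and 20.03 CPM in null libraries (log2 fold change -1.46, SE 0.139, edgeR adjusted p = 0.00612). Spock1, the matrix proteoglycan testican-1, was at 310, 242 and 274 CPM against 149, 140 and 134 CPM in null ducts (log2 fold change -0.97, SE 0.101, edgeR adjusted p = 0.00812). All of these were separated between genotypes.

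Rgcc, a regulator of the cell cycle, was at 44.8, 42.7 and 43.3 CPM in heterozygote and 23.3, 21.1 and 26 CPM in null libraries (log2 fold change -0.89, SE 0.104, edgeR adjusted p = 0.0118). Cdh4, the adhesion molecule R-cadherin, was at 264, 221 and 238 CPM against 143, 132 and 131 CPM (log2 fold change -0.83, SE 0.0867, edgeR adjusted p = 0.00812). Chst15, a sulfotransferase that acts on chondroitin sulfate, was at 320, 292 and 306 CPM against 199, 159 and 172 CPM (log2 fold change -0.79, SE 0.0965, edgeR adjusted p = 0.0149). Each kept more than 50% of its heterozygote level, and no null library reached a heterozygote one. Of the 6 genes of this list without a call in every fit, Efhd1, Spock1 and Cdh4 were called in 4 of the 6 fits that left out a library and Rgcc, Tecta and Chst15 in 3.

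Fgf10, a secreted FGF ligand of the KO, was at 129, 125 and 152 CPM in heterozygote and 102, 102 and 87.2 CPM in null libraries. The genotypes did not overlap but the gene was not called (log2 fold change -0.49, SE 0.102, edgeR adjusted p = 0.107). Crip2, a LIM domain protein, had an edgeR adjusted p of 0.0486 at a log2 fold change of -0.48, just inside the threshold of 0.5. The 1 KO gene with a positive value was Nrxn3, a presynaptic adhesion receptor, at 39.5, 38.5 and 40.7 CPM in heterozygote and 46.7, 37.6 and 40.4 CPM in null libraries (log2 fold change 0.07, SE 0.1002, edgeR adjusted p = 0.797). Its genotypes overlapped here, while its WT values of 22.2, 20.1 and 23.1 CPM lay below both.

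**Figure D4:**
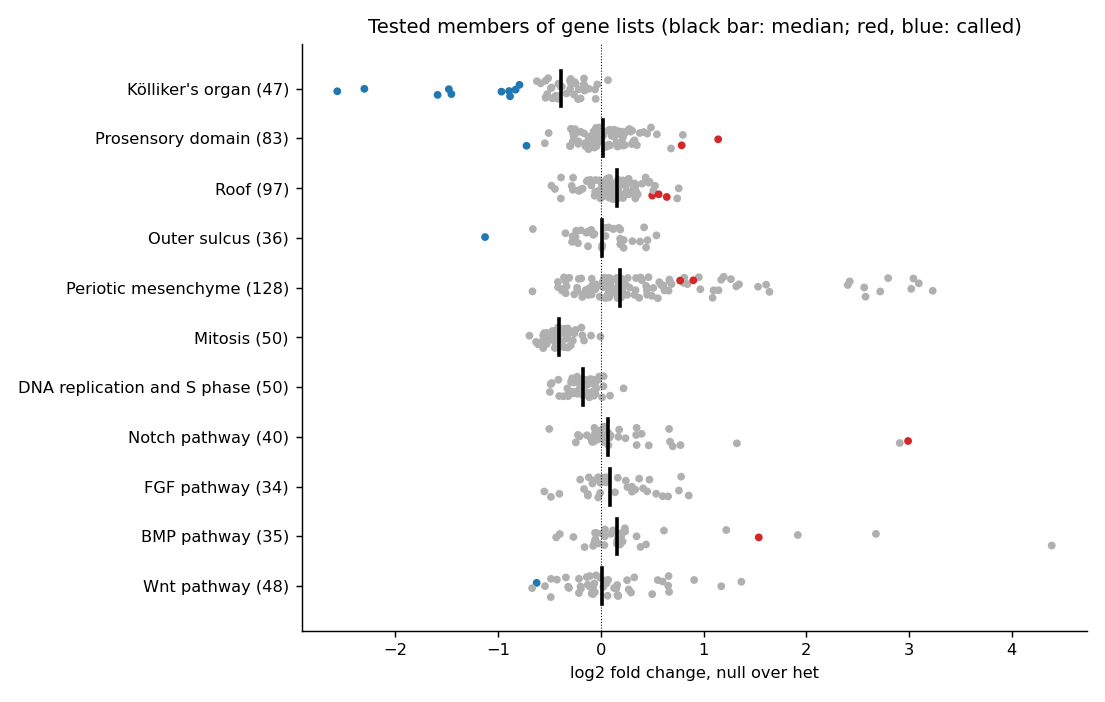
Log2 fold change of null against het ducts (horizontal axis) for each tested gene of 11 lists, 1 strip per list, with a black bar at the list's median. The KO strip lies almost wholly below 0 with a median of -0.39, the mitosis strip has a median of -0.41, and the prosensory and outer sulcus strips are centred near 0.

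All 50 mitosis genes tested had a negative log2 fold change, but none passed the test. Of the 50, 0 were called in either direction by edgeR, 33 had an unadjusted p under 0.05, all lower, against 5.25% of all genes, and DESeq2 called 7 lower, against 0.967%. The median log2 fold change was -0.41. Their summed level was 2741, 3427 and 3042 CPM in heterozygote libraries and 2254, 1996 and 2708 CPM in null libraries, and the highest null value, that of null library 3, was close to the lowest heterozygote value. Without null library 3, 5 were called lower. The median ranged from -0.56 to -0.31 over the fits that left out a library, and was -0.32 with sex as a covariate. Prc1, which bundles the microtubules of the central spindle, had the lowest value, at 51.4, 64.2 and 58.9 CPM against 35.6, 28.3 and 44.0 CPM (log2 fold change -0.69, SE 0.163, edgeR adjusted p = 0.1504).

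Mki67, the proliferation marker Ki-67, had a value of -0.63 on the log2 scale (SE 0.200, edgeR adjusted p = 0.297), and Bub3, a spindle checkpoint protein, the value nearest 0 (-0.00, edgeR adjusted p = 0.987). Among 50 genes of DNA replication and S phase, 0 were called by edgeR and 0 by DESeq2, 10 had an unadjusted p under 0.05, all lower, and the median was -0.17. Of 13 cyclin-dependent kinase inhibitors, D cyclins and their partners, 5 were higher and 2 lower at an unadjusted p under 0.05. By edgeR 1 was higher and 1 lower, against 0.293% and 0.322% of all genes. Cdk6, a kinase of G1, was at 22.4, 24.3 and 21.9 CPM in heterozygote and 35.6, 32.7 and 38.9 CPM in null libraries (log2 fold change 0.64, SE 0.105, edgeR adjusted p = 0.0449), and the lower gene was Rgcc. Cdkn1b, the inhibitor p27, was at 279, 285 and 306 CPM against 369, 377 and 319 CPM, without overlap and without a call (log2 fold change 0.29, SE 0.0858, edgeR adjusted p = 0.265). The mitosis and S phase lists share 7 members with the KO list, and the other 40 tested KO genes had a median of -0.36.

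Of 83 prosensory domain genes, 2 were higher and 1 lower, against 0.293% and 0.322% of all genes, with a median of 0.02. At an unadjusted p under 0.05, 15 were higher and 9 lower, against 6.14% and 5.25% of all genes. S100a1, an EF-hand calcium-binding protein, was at 48.5, 38.3 and 41.7 CPM in heterozygote and 76.0, 121 and 86.9 CPM in null libraries (log2 fold change 1.14, SE 0.172, edgeR adjusted p = 0.0323). Anxa5, a calcium-dependent phospholipid-binding protein, was at 305, 319 and 323 CPM against 496, 650 and 489 CPM (log2 fold change 0.79, SE 0.116, edgeR adjusted p = 0.0318). Thrb, the thyroid hormone receptor beta needed for hearing, was the lower one, at 145, 130 and 151 CPM against 100, 82.7 and 75.1 CPM (log2 fold change -0.72, SE 0.117, edgeR adjusted p = 0.0431). None of these overlapped between genotypes. S100a13, on the opposite strand with 42 bases between it and S100a1, was also higher, at 4.18, 5.73 and 5.01 CPM against 11.3, 14.5 and 9.30 CPM (log2 fold change 1.23, SE 0.208, edgeR adjusted p = 0.0486).

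Of 97 roof genes, edgeR called 3 higher and 0 lower and DESeq2 called 5 higher and 0 lower, with 24 higher and 7 lower at an unadjusted p under 0.05. Over all genes the shares called higher were 0.293% in edgeR and 1.14% in DESeq2, and those at an unadjusted p under 0.05 were 6.14% higher and 5.25% lower. The median of the roof genes was 0.15, and 74 of the 97 were positive. Rflnb, a filamin-interacting protein, was at 93.5, 101 and 102 CPM in heterozygote and 142, 154 and 142 CPM in null libraries (log2 fold change 0.56, SE 0.0755, edgeR adjusted p = 0.0220). Meis2, a homeodomain transcription factor, changed by 0.64 on the log2 scale (SE 0.0966, edgeR adjusted p = 0.0323) and Fibin, a secreted protein, by 0.50 (SE 0.0745, edgeR adjusted p = 0.0320). The changes were small and without overlap between genotypes. Of 36 outer sulcus genes 1 was called. Tac1, the precursor of substance P, was at 44.1, 42.8 and 47.3 CPM in heterozygote and 21.4, 23.9 and 16.1 CPM in null libraries (log2 fold change -1.13, SE 0.143, edgeR adjusted p = 0.0183), and the list's median was 0.01.

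Beyond the epithelium, edgeR called 2 of 128 periotic mesenchyme genes higher and 0 lower, against 0.293% and 0.322% of all genes, and DESeq2 called 9 higher and 0 lower, against 1.14% and 0.967%. At an unadjusted p under 0.05, 26 were higher and 6 lower, against 6.14% and 5.25%. The list also holds cell-cycle genes, and Cdca8, Spc24 and Nusap1, which are in the mitosis list too, were among the 6. The list median of 0.19 became 0.03 without null library 3. Nnat, neuronatin, was at 354, 417 and 409 CPM in heterozygote and 588, 769 and 659 CPM in null libraries (log2 fold change 0.77, SE 0.117, edgeR adjusted p = 0.0333), and Cthrc1, a secreted collagen repeat protein, at 21.4, 21.9 and 20.8 CPM against 32.7, 41.0 and 46.1 CPM (log2 fold change 0.90, SE 0.133, edgeR adjusted p = 0.0320). Without null library 3 both were still called, at log2 fold changes of 0.79. The median of 9 cartilage markers moved from 2.69 to -0.01 when that library was left out, and that of 8 endothelial markers from 1.56 to -0.24. In these lists 1 cartilage marker, Matn4, and no endothelial marker was called by edgeR, while 1 endothelial marker was higher at an unadjusted p under 0.05 and DESeq2 called 1.

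Matn4, the cartilage matrix protein matrilin-4, was at 16.6, 14.2 and 9.29 CPM in heterozygote and 70.6, 78.2 and 294 CPM in null libraries (log2 fold change 3.47, SE 0.573, edgeR adjusted p = 0.0456). The value of null library 3 was far above the other null values, and without it the log2 fold change was 2.48 (edgeR adjusted p = 5.02e-04). The sum of the cartilage markers was 1374 to 1519 CPM in heterozygotes and 1572, 1914 and 3295 CPM in null libraries, and its part in the change of Matn4 was not tested. Mrc1, the mannose receptor of macrophages, was at 1.25, 0.649 and 0.658 CPM in heterozygote and 4.05, 4.75 and 7.25 CPM in null libraries (log2 fold change 2.65, SE 0.355, edgeR adjusted p = 0.0220). Its WT values of 8.08, 16.4 and 1.63 CPM spanned both groups. It was the 1 immune marker called of 7 tested, and the sum of the immune markers was 6 to 9.2 CPM in heterozygotes and 10.3, 11 and 23.1 CPM in null libraries.

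Hair cell genes were not called by edgeR, with 0 of 16. At an unadjusted p under 0.05, 3 were higher and 1 lower, against 6.14% and 5.25% of all genes. DESeq2 called 2 higher and 1 lower, against 1.14% and 0.967%. Of the 16, 14 had a positive log2 fold change and 2, Atoh1 and Pcdh15, a negative one. Their median was 0.51, and 0.10 without null library 3. Among the rises, Myo7a came nearest the threshold (log2 fold change 0.89, SE 0.151, edgeR adjusted p = 0.0503). Pcdh15, the tip link protocadherin, was at 58.0, 51.4 and 52.0 CPM in heterozygote and 35.5, 25.3 and 36.0 CPM in null libraries, without overlap (log2 fold change -0.74, SE 0.143, edgeR adjusted p = 0.0845), and it was called without null library 3 (log2 fold change -0.83, edgeR adjusted p = 0.0352). Otof, otoferlin of the hair cell synapse, was at 21.2 CPM in null library 3 and below 1 CPM in the other 5. Of 11 tested glial markers 1 was called, S100b, which is also an EF-hand gene, and the summed level of the glial list was 1583 to 1827 CPM over the 6 libraries. Among markers of other cells, edgeR called 0 of 19 for spiral ganglion neurons, 0 of 8 for melanocytes, 0 of 8 for erythroid cells and 0 of 5 for muscle. At an unadjusted p under 0.05 the numbers were 7, 1, 4 and 0, and DESeq2 called 3, 0, 2 and 0.

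In the Notch, FGF, BMP, Wnt and Hedgehog lists edgeR called 0 or 1 gene each, against 0.615% of all genes. Over all genes 6.14% were higher and 5.25% lower at an unadjusted p under 0.05. DESeq2 called 1.14% of all genes higher and 0.967% lower. In the Notch pathway 1 of 40 genes was called, Rbpjl, while 7 were higher and 2 lower at an unadjusted p under 0.05 and DESeq2 called 2 higher. Lfng, the glycosyltransferase lunatic fringe that modifies Notch receptors, was at 24.0, 18.1 and 22.5 CPM in heterozygote and 34.6, 36.6 and 32.0 CPM in null libraries. The genotypes did not overlap, and the gene did not pass (log2 fold change 0.67, SE 0.126, edgeR adjusted p = 0.0704) except without null library 3 (log2 fold change 0.72, edgeR adjusted p = 0.0386) and in DESeq2 (adjusted p = 2.81e-04). Jag1, the Notch ligand of the prosensory domain, overlapped between genotypes, at 492, 514 and 466 CPM against 600, 494 and 446 CPM (log2 fold change 0.06, SE 0.115, edgeR adjusted p = 0.843). Hes1, a Notch target, was at 26.7, 24.0 and 22.0 CPM against 27.9, 28.3 and 36.5 CPM (log2 fold change 0.35, SE 0.138, edgeR adjusted p = 0.397).

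Of 34 FGF pathway genes 0 were called by edgeR, 4 were higher and 1 lower at an unadjusted p under 0.05, and DESeq2 called 2 higher. Fgf20, the ligand required for outer hair cells and their supporting cells, was at 22.5, 29.9 and 28.3 CPM in heterozygote and 40.4, 42.6 and 27.4 CPM in null libraries, and null library 3 lay within the heterozygote range (log2 fold change 0.45, SE 0.179, edgeR adjusted p = 0.397). Of 35 BMP pathway genes edgeR called 1, Chrdl1. In that list 9 were higher and 1 lower at an unadjusted p under 0.05, and DESeq2 called 3 higher. Of 48 Wnt pathway genes edgeR called 1, 5 were higher and 8 lower at an unadjusted p under 0.05, and DESeq2 called 2 lower. The Wnt gene called by edgeR was Frzb, a secreted antagonist of Wnt ligands. Frzb was at 34.4, 29.9 and 33.5 CPM in heterozygote and 21.7, 20.9 and 20.9 CPM in null libraries (log2 fold change -0.63, SE 0.0983, edgeR adjusted p = 0.0370). Of 13 Hedgehog genes 0 were called by edgeR or DESeq2, and 1 was higher and 1 lower at an unadjusted p under 0.05.

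Of 21 genes of retinoic acid and thyroid hormone handling, 5 were higher and 4 lower at an unadjusted p under 0.05. DESeq2 called 1 higher and 2 lower. By edgeR 2 were lower, Thrb and Cyp26c1, against 0.322% of all genes. Cyp26c1, an enzyme that breaks down retinoic acid, was at 27.1, 37.6 and 29.5 CPM in heterozygote and 18.2, 17.0 and 17.5 CPM in null libraries (log2 fold change -0.84, SE 0.138, edgeR adjusted p = 0.0456). Of 49 otic transcription factors edgeR called 1, Pou3f2, which was lower. At an unadjusted p under 0.05, 15 were higher and 9 lower, against 6.14% and 5.25% of all genes. DESeq2 called 8 higher and 3 lower, against 1.14% and 0.967%. Among the rises, Rora (log2 fold change 0.95, edgeR adjusted p = 0.0503) and Esrrg (0.82, edgeR adjusted p = 0.0643) came nearest the edgeR threshold. Pou3f2, the POU factor BRN2, was at 8.15, 7.07 and 6.84 CPM in heterozygote and 3.01, 2.33 and 2.26 CPM in null libraries (log2 fold change -1.54, SE 0.197, edgeR adjusted p = 0.0192). Nr2e1, the orphan nuclear receptor TLX, had the largest fall of the list, at 11.5, 1.95 and 4.57 CPM against 0.0413, 0.420 and 0.335 CPM, and it was outside the threshold (log2 fold change -4.43, SE 0.798, edgeR adjusted p = 0.0625).

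In the PRDM family edgeR called 1 of 10 tested genes, Prdm16 itself, and DESeq2 called Prdm16 lower and Mecom higher. Mecom, the closest relative of Prdm16, was at 21.1, 19.4 and 18.4 CPM in heterozygote and 32.8, 30.5 and 52.2 CPM in null libraries. All null values were above all heterozygote values and null library 3 was highest. Mecom was not called by edgeR (log2 fold change 0.97, SE 0.202, edgeR adjusted p = 0.102) except without that library (log2 fold change 0.69, edgeR adjusted p = 0.0223). Prdm1 was at 21.4, 20.3 and 19 CPM against 30.9, 23.5 and 19.1 CPM (log2 fold change 0.27, SE 0.171, edgeR adjusted p = 0.565).

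Of 34 EF-hand calcium-binding proteins tested, 4 were higher and 3 lower, against 0.293% and 0.322% of all genes. Pvalb, the calcium buffer parvalbumin, was at 0.281, 0.0361 and 0.329 CPM in heterozygote and 2.68, 4.55 and 4.99 CPM in null libraries (log2 fold change 4.22, SE 0.548, edgeR adjusted p = 0.0203). Heterozygote 2 was below the floor, and every null value was several times the highest heterozygote value. S100b was at 5.62, 3.86 and 4.06 CPM against 12.5, 12.2 and 25.4 CPM (log2 fold change 1.89, SE 0.317, edgeR adjusted p = 0.0481), and without null library 3, its highest, the log2 fold change was 1.45 (edgeR adjusted p = 0.00863). The other two that rose were S100a1 and S100a13, and the 3 that fell were Calb1, Efhd1 and Spock1.

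Genes of ions, transport and nucleotide signalling moved in both directions. Of 42 chloride channels and transporters edgeR called 1 lower, Clic6, and DESeq2 called 3 lower, against 0.322% and 0.967% of all genes. At an unadjusted p under 0.05, 2 were higher and 5 lower, against 6.14% and 5.25%. Clic5, of the same family as Clic6, was at 39.7, 34.9 and 37.9 CPM in heterozygote and 27.2, 15.6 and 23.9 CPM in null libraries, without overlap and without a call by edgeR (log2 fold change -0.76, SE 0.190, edgeR adjusted p = 0.179). Of 25 genes of the otoconia and endolymph, 3 were higher and 2 lower at an unadjusted p under 0.05. DESeq2 called 1 higher and 1 lower, and edgeR called 1 lower. Car2, a carbonic anhydrase, was at 61.6, 60.1 and 67.4 CPM against 34.9, 38.5 and 27.7 CPM (log2 fold change -0.91, SE 0.124, edgeR adjusted p = 0.0242). Of 14 gap junction and purinergic genes 1 was higher and 0 lower, by edgeR, by DESeq2 and at an unadjusted p under 0.05. P2rx2, an ATP-gated cation channel, was at 19.6, 17.7 and 14.7 CPM against 30.8, 42.6 and 30.5 CPM (log2 fold change 1.00, SE 0.165, edgeR adjusted p = 0.0459).

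Both subunits of the soluble guanylate cyclase, the receptor for nitric oxide, fell. Gucy1a1 was at 6.31, 6.06 and 7.46 CPM in heterozygote and 1.28, 1.97 and 1.42 CPM in null libraries (log2 fold change -2.08, SE 0.233, edgeR adjusted p = 0.0108). Gucy1b1, its partner and neighbour on chromosome 3 with 17737 bases between them, was at 8.19, 7.64 and 9.87 CPM against 1.98, 2.16 and 2.89 CPM (log2 fold change -1.87, SE 0.215, edgeR adjusted p = 0.0115). Both were called in 4 of the 6 fits that left out a library. Slc24a2, a sodium, potassium and calcium exchanger, was near the floor in heterozygotes, at 0.12, 0.1803 and 0.146 CPM, and at 1.28, 0.904 and 0.964 CPM in null libraries (log2 fold change 2.77, SE 0.402, edgeR adjusted p = 0.0301).

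Among matrix and adhesion genes, 4 of 40 laminins, integrins and basement membrane genes were higher and 6 lower at an unadjusted p under 0.05. The shares over all genes were 6.14% and 5.25%. DESeq2 called 1 lower, and edgeR called 1, against 0.615% of all genes in edgeR. Itga8, the integrin subunit that pairs with beta1 to bind nephronectin, was at 181, 109 and 143 CPM in heterozygote and 41.7, 40.4 and 58.0 CPM in null libraries (log2 fold change -1.63, SE 0.206, edgeR adjusted p = 0.0180). The heterozygotes were spread and all above the null values. Of 14 tectorial membrane genes only Tecta was called, and Tectb, which encodes beta-tectorin, was at 1114, 1171 and 1218 CPM against 1555, 1698 and 1112 CPM, with null library 3 just below the heterozygotes (log2 fold change 0.32, SE 0.153, edgeR adjusted p = 0.477). At an unadjusted p under 0.05, 2 of 33 cadherins were higher and 8 lower, against 6.14% and 5.25% of all genes. Their median was -0.19, and -0.40 without null library 3. DESeq2 called 1 higher and 3 lower. By edgeR 1 was higher and 2 lower, against 0.293% and 0.322% of all genes. Cdh6 was at 10.3, 13.7 and 12.2 CPM against 24.6, 19.5 and 25.6 CPM (log2 fold change 0.95, SE 0.159, edgeR adjusted p = 0.0481).

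Pcdh11x, an X-linked protocadherin, was at 19, 23.7 and 21.5 CPM in heterozygote and 10.6, 8.07 and 11.1 CPM in null libraries (log2 fold change -1.11, SE 0.160, edgeR adjusted p = 0.0287), and the other cadherin called lower by edgeR was Cdh4. At an unadjusted p under 0.05, 7 of 70 axon guidance genes were higher and 9 lower, against 6.14% and 5.25% of all genes. DESeq2 called 1 higher and 2 lower, and edgeR called 1, against 0.615% of all genes in edgeR. Sema6d, a transmembrane semaphorin, was at 84.1, 88.1 and 85.1 CPM against 54.4, 41.6 and 44.1 CPM (log2 fold change -0.88, SE 0.109, edgeR adjusted p = 0.0167). Postn, the matricellular protein periostin, was at 178, 209 and 178 CPM against 352, 381 and 526 CPM (log2 fold change 1.16, SE 0.155, edgeR adjusted p = 0.0220), and without null library 3 the log2 fold change was 0.96 (edgeR adjusted p = 0.00221). Gsn, the actin-severing protein gelsolin, was at 121, 102 and 115 CPM against 37.0, 41.1 and 60.9 CPM (log2 fold change -1.29, SE 0.181, edgeR adjusted p = 0.0269). All of these were separated between genotypes.

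Of the largest rises not yet described, Anks1b, a postsynaptic scaffold protein, was at 1.77, 2.34 and 1.46 CPM in heterozygote and 10.4, 9.75 and 12.03 CPM in null libraries (log2 fold change 2.53, SE 0.22, edgeR adjusted p = 0.00356). It was called in 5 of the 6 fits that left out a library. Mdga1, an anchored immunoglobulin protein that binds neuroligins, was at 4.30, 4.54 and 3.07 CPM against 18.6, 12.4 and 20.8 CPM (log2 fold change 2.12, SE 0.242, edgeR adjusted p = 0.0114). Cpa6, a secreted carboxypeptidase, was at 3.25, 4.15 and 3.95 CPM against 17.9, 18.6 and 11.4 CPM (log2 fold change 2.07, SE 0.219, edgeR adjusted p = 0.00812). All 3 null libraries lay above all heterozygotes for these genes. Hydin, of the central pair of motile cilia, and Fgf14, an intracellular FGF homologue that modulates sodium channels, had log2 fold changes of 2.29 (SE 0.328, edgeR adjusted p = 0.0286) and 1.95 (SE 0.298, edgeR adjusted p = 0.0337).

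Of the largest falls not yet described, Serpinb5, the serpin maspin, was at 12.4, 9.84 and 15.4 CPM in heterozygote and 0.330, 1.39 and 0.838 CPM in null libraries, so that null ducts held 6.80% of the heterozygote mean (log2 fold change -3.85, SE 0.424, edgeR adjusted p = 0.0105). Upp1, uridine phosphorylase, was at 15.2, 7.39 and 11.6 CPM against 1.03, 1.16 and 1.59 CPM (log2 fold change -3.17, SE 0.314, edgeR adjusted p = 0.00695). The spread of the heterozygotes was wide for both and did not reach the null values. Pkd1l1, a polycystin family protein, was at 11.3, 6.53 and 8.38 CPM against 2.39, 1.84 and 1.76 CPM (log2 fold change -2.13, SE 0.255, edgeR adjusted p = 0.0137). A further 5, Gm35835, Gm13781, Gm35208, Gm35147 and E030013I19Rik, are annotated as long non-coding or antisense RNAs, with log2 fold changes from -3.61 for Gm35835 to -1.65 for E030013I19Rik, which overlaps Itga8 by 977 bases on the opposite strand. 2410124H12Rik, which overlaps Clic6 by 11631 bases on the same strand, had a log2 fold change of -2.83 (SE 0.336, edgeR adjusted p = 0.0135), and how reads were shared between them was not tested.

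The same genes are given with the WT libraries beside them, and the 3 comparisons share libraries, so their values are not independent. The endothelial marker sum was 143, 124 and 12.8 CPM in WT 1, 2 and 3, against 14.8 to 18.2 CPM in heterozygotes. That of the immune markers was 32.8, 42.5 and 8.45 CPM, against 6 to 9.2 CPM. The cartilage sum, at 1409 to 1491 CPM in WT, lay within the heterozygote range. The part of these sums in the values against WT and in the difference of steps was not tested. Null against WT, 158 genes were higher (0.920%) and 135 lower (0.786%), and heterozygote against WT, 9 were higher (0.0521%) and 17 lower (0.0984%). Snap91 had log2 fold changes of -1.48 in null against heterozygote and -0.12 in heterozygote against WT (edgeR adjusted p = 0.536). Clic6 had -1.59 and -0.17 (edgeR adjusted p = 0.543), Thrb -0.72 and -0.06 (edgeR adjusted p = 0.764), and Tecta -0.88 and -0.04 (edgeR adjusted p = 0.917). For these 4 genes the heterozygote change was not past the threshold. Gsn had -1.29 and -0.88 (edgeR adjusted p = 0.0171), and its WT level was 234, 219 and 172 CPM, above all heterozygotes. Pla2r1, at 58.8, 54.9 and 45.9 CPM in WT, had -1.42 and -0.74 (edgeR adjusted p = 0.0194).

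Some genes had higher values in heterozygote than in WT ducts already, and of those given here Tectb and Prdm1 were called there. Postn, at 130, 137 and 145 CPM in WT, was 0.45 higher on the log2 scale in heterozygote against WT (edgeR adjusted p = 0.0465) and 1.16 in null against heterozygote. Anxa5 had 0.38 (edgeR adjusted p = 0.0124) and 0.79. Tectb, at 779, 783 and 713 CPM in WT, had 0.62 (edgeR adjusted p = 0.0107) and 0.32, Prdm1 1.03 (edgeR adjusted p = 0.0466) and 0.27, and Fgf20, at 16.6, 15.1 and 11.5 CPM in WT, 0.90 (edgeR adjusted p = 0.0504) and 0.45. The second step was not past the threshold for the latter 3.

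**Figure D5:**
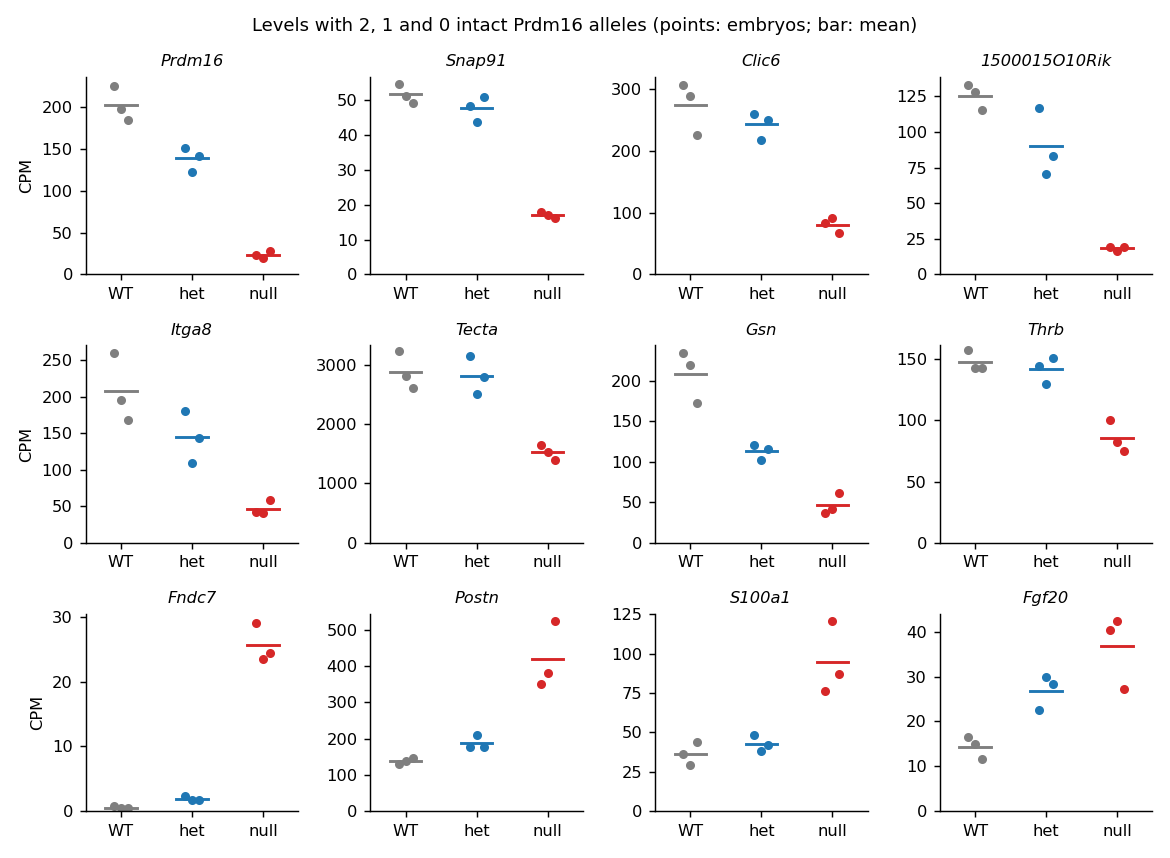
CPM (vertical axis) of 12 genes in the 3 WT, 3 het and 3 null libraries, with a bar at each genotype's mean. Snap91 was at 49.3 to 54.7 CPM in WT, 43.9 to 50.9 CPM in het and 16.2 to 18 CPM in null libraries, while Fgf20 was at 11.5 to 16.6 CPM in WT and overlapped between het and null.

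Whether the second allele changed a gene by a different amount than the first was tested over all 9 libraries as the difference of the 2 steps, null minus heterozygote less heterozygote minus WT on the log2 scale. Of 17797 genes tested, 2 passed an edgeR adjusted p of 0.05 (0.0112%), and 1236 had an unadjusted p under 0.05 (6.94%). The 2 were Prdm16, the targeted gene, with a difference of -2.02 (SE 0.217, edgeR adjusted p = 0.0228), and Snap91, with a difference of -1.36 (SE 0.144, edgeR adjusted p = 0.0228). Both had the larger fall in the second step. On the log2 scale equal losses of CPM at the 2 steps would also give a larger second fall. By the levels given above, both genes lost more CPM at the second step than at the first. The number fell to 0 without WT 1, WT 2, WT 3, heterozygote 1, heterozygote 3 or null 1, was 4 without heterozygote 2 and stayed at 2 without null 2 or null 3. The difference was not past the threshold for Clic6 (-1.42, edgeR adjusted p = 0.177), Tecta (-0.85, edgeR adjusted p = 0.651), Thrb (-0.67, edgeR adjusted p = 0.681) or Fgf20 (-0.45, edgeR adjusted p = 0.733).

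A set of 23 genes that the study's text discusses for null ducts compared with WT was followed here against the heterozygotes. By edgeR 2 were higher in null ducts, 9 were lower and 12 were not called. The study's own calls were made with DESeq2. Here DESeq2 also called Lfng and Mecom higher, which are among the 12, and its calls for the rest of the 23 are not given. The 2 were S100a1 and Postn, and the 9 were Pou3f2, Itga8, Efhd1, Clic6, Spock1, Rgcc, Tecta, Gsn and Thrb. The same null libraries stand in both comparisons, so the direction is not independent evidence. Among the 12, Sall1, a zinc finger transcription factor, was at 260, 313 and 265 CPM in heterozygote and 379, 275 and 313 CPM in null libraries (log2 fold change 0.20, SE 0.129, edgeR adjusted p = 0.570), and Lor, loricrin, at 21.0, 28.2 and 27.5 CPM against 32.9, 43.1 and 26.5 CPM (log2 fold change 0.42, SE 0.186, edgeR adjusted p = 0.446). Both overlapped between genotypes.

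Called genes that lay next to each other moved the same way. Among the 105, 8 pairs overlapped or had at most 20000 bases between them, these held 15 genes, and in all 8 the direction was the same. They were Prdm16 with B230104I21Rik and with Gm13111, Clic6 with 2410124H12Rik, Itga8 with E030013I19Rik, Matn4 with Rbpjl, Mdga1 with Gm16758, S100a1 with S100a13 and Gucy1a1 with Gucy1b1. Of these pairs 5 overlap as whole genes, introns included, and how reads were shared where exons overlap was not tested. Clic6 and 2410124H12Rik lie on the same strand, so counting by strand would not part them. On the X chromosome 4 genes were called, Chrdl1, Pcdh11x, Cnga2 and Fhl1, and on the Y chromosome 0, and all 4 kept an edgeR adjusted p under 0.05 with sex as a covariate.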

How the data were processed

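Gene counts from the cochlear ducts of single E14.5 mouse embryos were analysed. According to the study's methods and the submitters' processing notes, the authors made TruSeq mRNA libraries, sequenced single reads, and used cutadapt 1.13, STAR, HTSeq 0.6.1p1 and DESeq2 with mm10. The authors deposited a table of raw counts for each library, with Ensembl genes and no normalization. The strand setting and annotation release of the counting are not given in the sources used here. All 37 mitochondrial genes held 0 counts. Names and positions came from GENCODE vM21 for 54079 of the 54232 genes, and promoters from RefSeq (GRCm38.p6).

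Samples were grouped by labelled genotype. The members and gene lists were chosen with earlier results of these data known. The domain lists came from the single-cell clusters the study reported for WT ducts, and the pathway, family and marker lists were written by hand (1259 entries, 4 unmatched). The 6 null and heterozygote libraries were fitted with edgeR 4.0.16 in R 4.3.3 (TMM, filterByExpr with a minimum count of 10, quasi-likelihood test), and all 9 libraries for the difference of steps. The SE of a log2 fold change is its size over the root of the F statistic. The biological coefficient of variation was 0.199. Between replicates of a genotype the chi-square per gene was at least 5.76, above sampling noise. The fits were run on simulated counts with less spread between replicates than these data had. That run does not show how the fits do at the spread seen here.

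Named genes were Prdm16, the 15 largest rises and 15 largest falls among called genes without overlap and with a higher mean of at least 1 CPM, the 23 genes the study names for null ducts, called list members and the extremes of lists. A gene that this rule names is not reported here. Alternatives were DESeq2 1.42.0, other scalings, filters and thresholds, all 9 libraries, the replicate number as a block, sex as a covariate, and each library left out in turn. Same-numbered libraries did not deviate together (correlations 0.16, -0.15 and 0.08), and the single-cell, qPCR and staining experiments were not analysed here.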

Additional observations from a re-analysis of the deposited data

How the results depend on the processing

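The counts of 50 genes higher and 55 lower became 195 and 165 with DESeq2, 227 and 139 without a filter on low counts, 79 and 85 with all 9 libraries in the fit, and 31 and 31 at an absolute log2 fold change over 1. With the replicate number as a block they were 22 and 30, of which 19 and 29 were among the main calls, and since the numbers did not pair the libraries this is no measure of a weaker effect. Leaving out 1 library gave 5 to 81 higher and 6 to 101 lower. The 2 genes with unequal steps became 45 with DESeq2, 42 without a filter and 0 with the replicate block, and 0 to 4 with 1 library left out. The 10 KO genes called lower became 4 to 12 with 1 library left out and stayed at 10 with the block. The value of Prdm16 was -2.57 with the block and -2.70 to -2.43 with 1 library left out. The causes of these shifts were not tested. Scaling by RLE (50 and 56), by total counts (46 and 58), a mean count over 50 (39 and 48) and sex as a covariate (60 and 58) stayed within 1.5 times the counts. The 72 single genes followed included some not called in the main fit, and only called ones could be lost. Among the 72, the replicate block took 25 from past the threshold to outside it. Leaving out heterozygote 1 or 3 took 49 each, and leaving out heterozygote 2 took 34. The sign turned for Jag1 without null 1 (-0.059, range to 0.16 with 1 library left out) and for Cdh5, an endothelial marker, without null 3 (-1.90, range to 4.36), neither of them called. A count of 3, the floor, was worth up to 0.125 CPM, and 3 embryos per genotype limit the precision more than depth does.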

Other observations

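Some called genes outside the named groups are given here, chosen after their values were seen. Cpm, carboxypeptidase M, was at 24.7, 34.8 and 23.8 CPM in heterozygote and 79.9, 75.1 and 84.8 CPM in null libraries (log2 fold change 1.52, SE 0.149, edgeR adjusted p = 0.00690) and was called in 5 of the 6 fits that left out a library. Alpk2, an atypical kinase, was at 6.91, 5.84 and 8.38 CPM against 19.6, 20.02 and 17.9 CPM (log2 fold change 1.44, SE 0.159, edgeR adjusted p = 0.0105), also called in 5 of the 6. All null values were above all heterozygote values for both.

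Among the genes that fell, Pappa2, a protease of insulin-like growth factor binding proteins, was at 58.3, 50.4 and 58.3 CPM in heterozygote and 24.2, 16.7 and 21.3 CPM in null libraries (log2 fold change -1.43, SE 0.144, edgeR adjusted p = 0.00710). Cnga2, a subunit of a channel gated by cyclic nucleotides, was at 40.3, 43.8 and 43.2 CPM against 17.1, 18.1 and 12.5 CPM (log2 fold change -1.42, SE 0.142, edgeR adjusted p = 0.00710). Both were called in 4 of the 6 fits, and no null library reached a heterozygote one. Myo5b, an unconventional myosin of apical recycling, was at 122, 111 and 121 CPM against 75.4, 71.8 and 74.6 CPM (log2 fold change -0.68, SE 0.0765, edgeR adjusted p = 0.0110).

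Mx1, a GTPase induced by interferon, was low throughout and did not stay called in any of the 6 fits that left out a library. It was at 1.20, 0.901 and 0.549 CPM in heterozygote and 0.124, 0.0646 and 0.0419 CPM in null libraries, all null values being near or under the floor, and at 3.85, 2.59 and 2.17 CPM in WT.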
